A study of Homo sapiens with 8 samples.

Results

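Notch ligands, receptors and targets were followed through ribosome-associated RNA of MDA231-BrM2 cells. This line derives from the human breast cancer line MDA-MB-231 and metastasises to brain. The set was chosen by gene symbol: the ligands DLL1, DLL4, JAG1 and JAG2, the receptors NOTCH1, NOTCH2 and NOTCH3, and the targets HES1, HEY1 and NRARP. These 10 symbols stood on 11 of the 57445 gene rows of the table, because JAG1 had a further row (ENSG00000270408.1) with 0 reads in every library. Of the 10 genes, 9 had a mean count of at least 10 and were among the 15806 genes tested. DLL4, with a mean of 9.75 reads, was not.

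RNA was taken by translating ribosome affinity purification (TRAP), in which beads carrying an antibody to GFP pull tagged polysomes of the carcinoma cells out of a mixed lysate. The 4 groups had 2 libraries each, described in the series as independent replicates. In 3 groups the carcinoma cells had been kept with astrocytes, 1 astrocyte per carcinoma cell, for 24 h: cells with the hairpin Cx43sh1, cells with the hairpin Cx43sh2, and cells with a control hairpin. The remaining group was cells with the control hairpin grown alone, called the control monoculture. Cx43 is connexin 43, the gap junction protein encoded by GJA1, and the series title concerns gap junctions between carcinoma cells and astrocytes. There were no Cx43-depleted cells without astrocytes among the samples, so the effect of a hairpin in the absence of astrocytes was not measured. The labels do not say from which species the astrocytes came or whether any line was a clone.

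In Notch signalling, a ligand of the Delta or Jagged family on one cell binds a Notch receptor on its neighbour. The receptor is then cut by an ADAM metalloprotease and by gamma-secretase, and its freed intracellular domain enters the nucleus. There it joins the DNA-binding protein RBPJ and a Mastermind coactivator and switches on genes such as HES1, HEY1 and NRARP. Fringe and other sugar transferases modify the receptor and change how well it responds to each ligand family. The pathway is active between neighbouring neural and glial cells in the brain, and JAG1 has been studied widely in breast cancer.

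Gene reads ran from 38219702 to 48997555 per library, and 3 reads in a library corresponded to 0.0624 to 0.0805 CPM (counts scaled to the size of the library), a floor that covers counting error only. Between 14.2% and 26.1% of the totals aligned to several places, most in replicate 1 of the control coculture. GJA1, the targeted gene, averaged 27.8 ± 0.00502 CPM with Cx43sh1, 32.7 ± 1.46 CPM with Cx43sh2, 65.3 ± 0.901 CPM in the control coculture and 48.7 ± 3.40 CPM in the control monoculture (SD, n = 2 each). Over both hairpins it fell to 0.462 of the control coculture level (log2 fold change -1.11, SE 0.0609, edgeR quasi-likelihood adjusted p = 7.89e-06).

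Markers of the carcinoma line and of other cell types were summed in each library. The 10 carcinoma line markers, led by VIM and CD44, summed to 2913 to 2959 CPM with Cx43sh1, 2770 to 2809 CPM with Cx43sh2, 3751 to 3798 CPM in the control coculture and 2930 to 3107 CPM in the control monoculture. Of these 10, 3 rose and 1 fell in the control coculture against the control monoculture, and 0 rose and 4 fell over both hairpins against the control coculture. The epithelial marker EPCAM was low, with group means of 8.66 to 11.9 CPM. The 12 astrocyte markers summed to 226 to 236 CPM with Cx43sh1, 223 to 228 CPM with Cx43sh2, 266 to 271 CPM in the control coculture and 225 to 229 CPM in the control monoculture. Most of each astrocyte sum was GLUL, which averaged 163, 167, 197 and 174 CPM in the same order. Of the 9 tested astrocyte markers 3 rose and 0 fell in the control coculture against the control monoculture. Of all tested genes 8.74% rose and 2.93% fell there. Over both hairpins against the control coculture 0 rose and 2 fell, where 3.37% of all tested genes rose and 5.85% fell. GJB6 and S100B were at 3 reads or fewer in every library and AQP4 did not exceed 0.169 CPM. The carcinoma cells grown alone already held 37.6 CPM of SOX9 and 8.66 CPM of GFAP. GFAP averaged 16.7 CPM with Cx43sh1, 12 CPM with Cx43sh2 and 13.3 CPM in the control coculture. SLC1A3 averaged 3.61, 3.99 and 5.31 CPM in the same order, against 2.86 CPM in the control monoculture. SOX9, AQP4, SLC1A2 and ALDOC also averaged more in all 3 cocultures than in the control monoculture. ALDH1L1 and NDRG2 averaged less in all 3, and GLUL and FGFR3 went both ways. The 10 microglia and macrophage markers summed to 132 to 143 CPM with Cx43sh1, 151 CPM in both Cx43sh2 libraries, 147 to 149 CPM in the control coculture and 86.7 to 87.5 CPM in the control monoculture. That sum was mostly LAPTM5, and AIF1, TYROBP, C1QA and C1QB had 0 reads in every library. All 3 of its tested members rose in the control coculture, and 1 fell over both hairpins. Endothelial markers summed to 172 to 192 CPM with Cx43sh1, 195 to 204 CPM with Cx43sh2, 192 to 206 CPM in the control coculture and 181 to 182 CPM in the control monoculture. The endothelial sum was mostly ESAM, at group means of 171 to 188 CPM, followed by KDR at 7.06 to 9.61 CPM. CDH5, VWF, CLDN5 and EMCN averaged at most 0.100 CPM in every group. The 7 markers of pericytes and smooth muscle summed to 23.2 to 25.5 CPM with Cx43sh1, 23.4 to 24.2 CPM with Cx43sh2, 28.2 to 29.5 CPM in the control coculture and 26.1 to 33.0 CPM in the control monoculture. The 8 neuron markers summed to 23.3 to 23.9 CPM with Cx43sh1, 24.4 to 24.7 CPM with Cx43sh2, 31.7 to 32.7 CPM in the control coculture and 25.3 to 26.1 CPM in the control monoculture. Among them MAP2 averaged 6.69 CPM with Cx43sh1, 6.88 CPM with Cx43sh2, 12 CPM in the control coculture and 5.94 CPM in the control monoculture. The sums of the carcinoma line, astrocyte and neuron markers were highest in both control coculture libraries, as DLL1 was. Single genes weighed heavily in them, and VIM averaged 2135 CPM in the control coculture and 1411 CPM in the control monoculture. EPCAM, ANXA1 and CAV1 averaged less in the control coculture than in the control monoculture, and the other carcinoma line markers averaged more. Of 5 tested neuron markers 1 rose and 0 fell in that comparison, and 0 rose and 1 fell over both hairpins. RNA of the carcinoma cells and RNA of other cells in the pulldown cannot be told apart in these sums, and their part in the Notch results was not tested.

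Compared per kilobase of merged exons, so that genes of different length can be set side by side, JAG1 was the most abundant of the 10 in all 3 cocultures. Its level was 9.24 CPM per kilobase with Cx43sh1, 10.2 with Cx43sh2, 8.45 in the control coculture and 5.24 in the control monoculture. NOTCH2 was next in the cocultures, at 6.84, 6.23 and 7.04 CPM per kilobase in the same order, and led in the control monoculture, at 6.02 CPM per kilobase. The ratio of JAG1 to NOTCH2 was 1.35 ± 0.0110, 1.64 ± 0.00821 and 1.21 ± 0.103 in the Cx43sh1, Cx43sh2 and control cocultures and 0.872 ± 0.0359 in the control monoculture (SD, n = 2 each). With the longest coding transcript as the length it was 1.43, 1.73 and 1.28 in those cocultures and 0.925 in the control monoculture. Reads shared between NOTCH2 and its near-identical paralog NOTCH2NL make the NOTCH2 level uncertain.

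JAG1 made up 92.7% to 97.2% of the summed per-length level of the 4 ligands in every library, and DLL1 1.55% to 5.47%. NOTCH2 made up 74.7% to 79.4% of the 3 receptors, NOTCH1 15.2% to 18.7% and NOTCH3 4.58% to 6.75%. Among the targets, HES1 was the highest per length in all 3 cocultures, at 2.04, 2.20 and 1.83 CPM per kilobase with Cx43sh1, Cx43sh2 and the control hairpin. In the control monoculture HES1, at 1.25 CPM per kilobase, overlapped its neighbour in the order, NRARP at 1.31, which in turn overlapped NOTCH1 at 1.44. NOTCH1 and NRARP also overlapped in both Cx43-depleted cocultures. NOTCH3 and DLL1 overlapped in the control coculture, JAG2 and DLL4 with Cx43sh2, and HEY1 and NOTCH3 in the control monoculture. The other neighbours in the order had libraries that did not overlap within a group. Parts of this order depended on the length used. With the longest coding transcript HEY1, at 1.39 CPM per kilobase, stood above NRARP at 1.26 in the control coculture. In the control monoculture HES1, at 1.63, then stood above NRARP at 1.31.

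**Figure D1:**
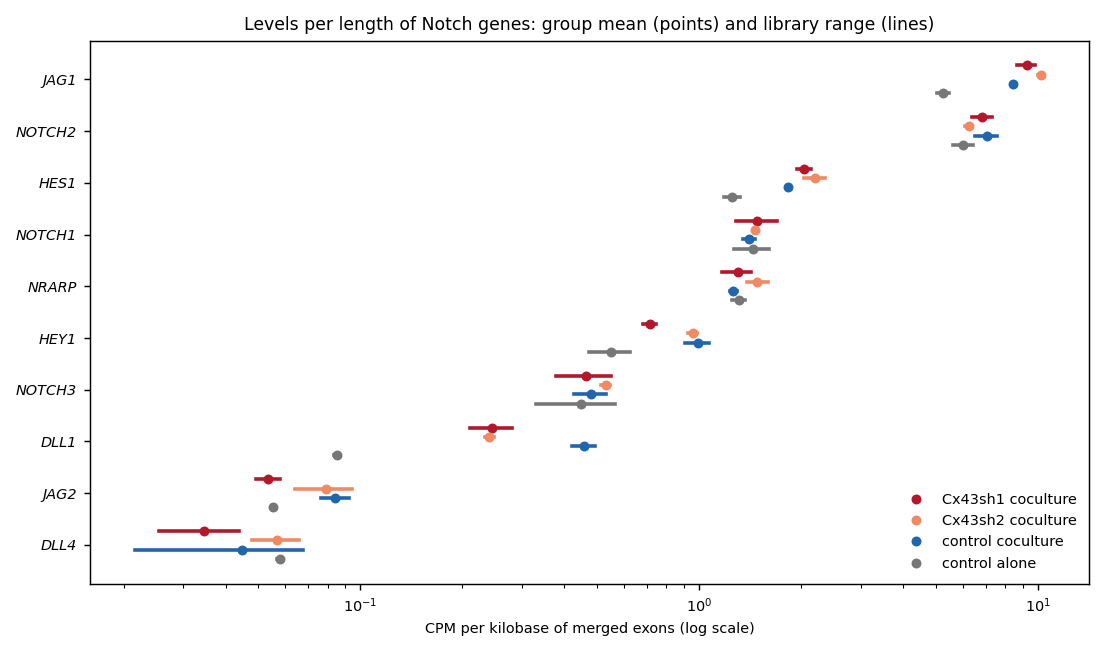
Levels of the 10 Notch genes in CPM per kilobase of merged exons on a log axis, with points for group means and lines for the range of the 2 libraries, coloured by group. JAG1 and NOTCH2 stand highest, between 5.24 and 10.2 CPM per kilobase, while JAG2 and DLL4 stay under 0.1 CPM per kilobase, and DLL1 is at 0.457 in the control coculture and 0.0855 in the control monoculture.

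The first comparison, the control coculture against the control monoculture, asks which of these transcripts on carcinoma cell ribosomes differed when astrocytes were present. The ligands DLL1 and JAG1 and the targets HES1 and HEY1 rose, and no Notch gene fell. These values are relative to the pulled-down RNA of each library, in which fewer cells of a type and less RNA per cell cannot be told apart. The rises were 4 of 9 tested genes, where 8.74% of all tested genes rose and 2.93% fell. The median log2 fold change of the 9 was 0.56, against 0.00 over all genes. The Notch genes and the gene lists below were chosen with earlier results of these data known. Their counts and medians, here and in the later comparisons, are therefore descriptive only.

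DLL1 (ENSG00000198719.7, chr6:170282206-170306565 on the minus strand of GRCh38), a Delta-family ligand, was low but moved most. It stood at 0.902 and 0.676 CPM with Cx43sh1, 0.796 and 0.751 CPM with Cx43sh2, 1.36 and 1.58 CPM in the control coculture, against 0.281 and 0.270 CPM in the control monoculture. Both control coculture libraries were above all others, both libraries of the control monoculture below all others, and the Cx43-depleted libraries lay between without overlap with either. In reads these were 39 and 28 with Cx43sh1, 33 in both Cx43sh2 libraries, 53 and 59 in the control coculture, and 12 and 13 in the control monoculture. DLL1 rose 5.29-fold in the control coculture against the control monoculture (log2 fold change 2.40, SE 0.248, edgeR adjusted p = 0.000421). The call held when any 1 library was left out, with log2 fold changes of 2.28 to 2.51. FAM120B lies across DLL1 on the other strand in the GENCODE 29 annotation with 0 shared exon bases. The library kit does not mark strand, and FAM120B, at a mean of 519 reads per library, did not pass the test in the same comparison (-0.14, adjusted p = 0.367).

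JAG1 (ENSG00000101384.7, chr20:10637684-10673999 on the minus strand of GRCh38), a Jagged-family ligand, was the most read of the 4 ligands. Its levels were 80.6 and 91.2 CPM with Cx43sh1, 92.8 and 96.8 CPM with Cx43sh2, 79.7 and 77.3 CPM in the control coculture, against 50.6 and 46.9 CPM in the control monoculture. All 6 coculture libraries were above both libraries of the control monoculture. JAG1 rose 1.61-fold in the control coculture against the control monoculture (log2 fold change 0.69, SE 0.0796, edgeR adjusted p = 0.000831), and 0.62 to 0.73 without any 1 library, still past the test. An antisense gene, AL050403.2, shares 79 exon bases with JAG1 and had a mean of 0.625 reads per library. The effect of this overlap on the JAG1 count was not tested.

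The remaining ligands had few reads. JAG2, a Jagged-family ligand, had 0.370 and 0.314 CPM with Cx43sh1, 0.603 and 0.409 CPM with Cx43sh2, 0.489 and 0.590 CPM in the control coculture, against 0.352 and 0.354 CPM in the control monoculture. Its difference between the control coculture and the control monoculture did not pass the test (0.61, 95% interval -0.07 to 1.28, edgeR adjusted p = 0.229). AL512356.1, on the same strand, shares 469 exon bases with JAG2 and had 0 reads in every library. The effect of that overlap on the JAG2 count was not tested. DLL4, a Delta-family ligand best known from endothelium, had 4 to 13 reads per library. It stood at 0.208 and 0.121 CPM with Cx43sh1, 0.313 and 0.227 CPM with Cx43sh2, 0.103 and 0.322 CPM in the control coculture, against 0.281 and 0.270 CPM in the control monoculture. The control coculture overlapped the control monoculture, and both Cx43sh1 libraries lay below those of Cx43sh2 and of the control monoculture. In a fit without the filter on low counts its log2 fold change in the control coculture against the control monoculture was -0.40 (SE 0.480, edgeR adjusted p = 0.794), so a change was not detectable at this depth.

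The receptors did not pass the test in this comparison. NOTCH2 had 107 and 123 CPM with Cx43sh1, 102 and 107 CPM with Cx43sh2, 127 and 109 CPM in the control coculture, against 108 and 94.3 CPM in the control monoculture. The libraries of the control coculture were above those of the control monoculture, but by little (0.23, 95% interval -0.01 to 0.46, edgeR adjusted p = 0.202). NOTCH2NL ran from 15.9 to 18.2 CPM over all libraries. NOTCH1 had 13.2 and 17.6 CPM with Cx43sh1, 14.9 and 15.3 CPM with Cx43sh2, 15.1 and 14.0 CPM in the control coculture, against 16.7 and 13.1 CPM in the control monoculture. The groups overlapped, and its difference was -0.03 (95% interval -0.37 to 0.31, edgeR adjusted p = 0.909). NOTCH3 had 3.54 and 5.17 CPM with Cx43sh1, 5.11 and 4.82 CPM with Cx43sh2, 4.99 and 4.0 CPM in the control coculture, against 5.30 and 3.10 CPM in the control monoculture. The libraries of the control monoculture lay far apart, and the interval of its difference was wide (0.11, 95% interval -0.48 to 0.70, edgeR adjusted p = 0.823).

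**Figure D2:**
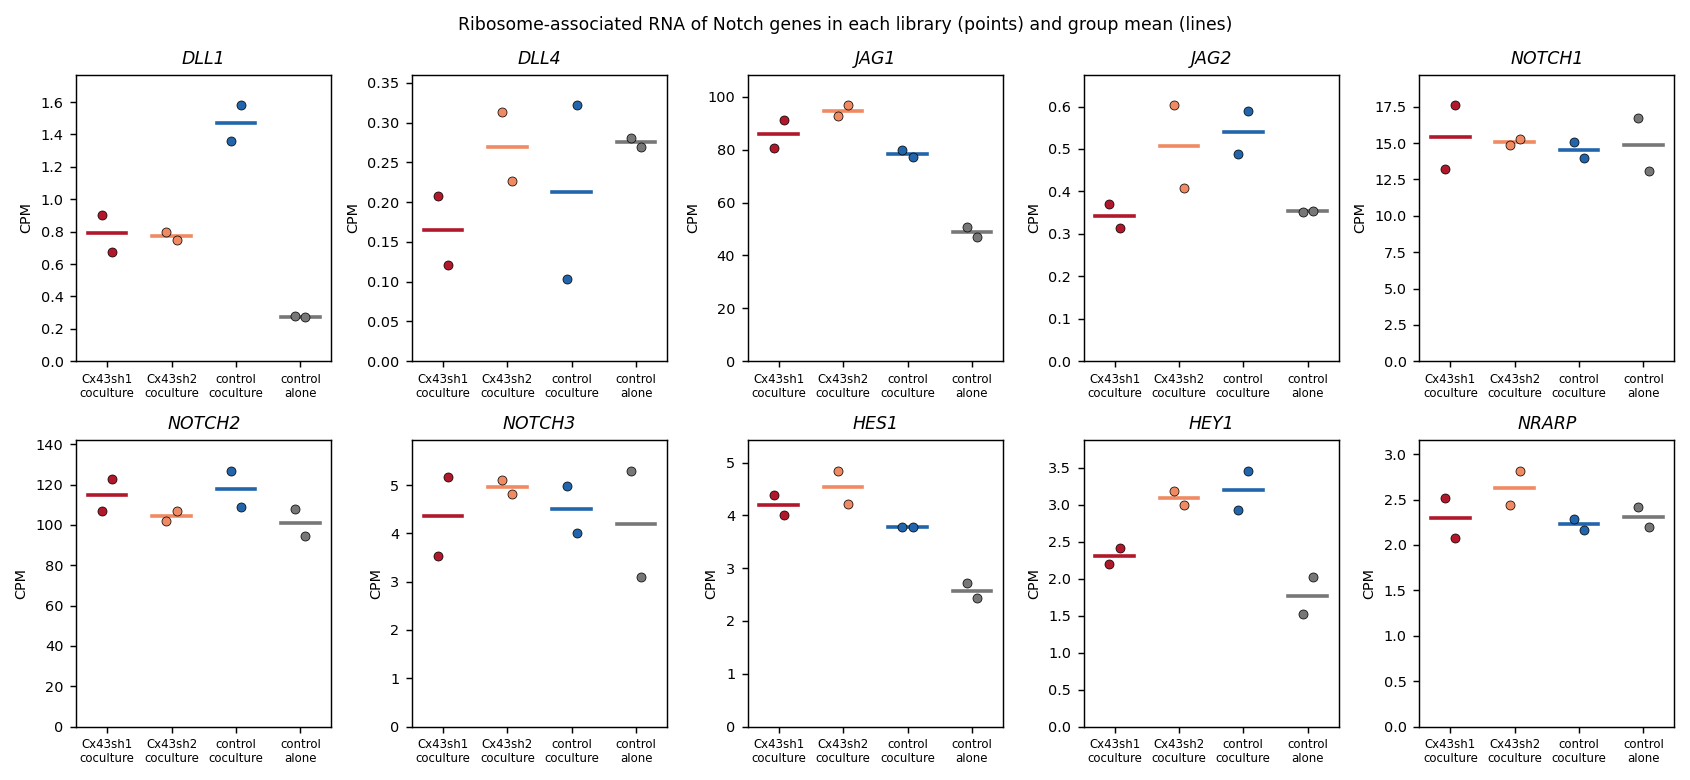
CPM of each of the 10 Notch genes in every library, with points for libraries and lines for group means, each panel on its own linear axis from 0. In the DLL1 panel the control coculture, at 1.36 and 1.58 CPM, stands above the Cx43-depleted cocultures and these above the control monoculture, while in the JAG1 panel all cocultures lie between 77.3 and 96.8 CPM and the control monoculture at 46.9 and 50.6 CPM.

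The targets were 2 transcriptional repressors, HES1 and HEY1, and NRARP, which binds the Notch complex and limits its activity. HES1 (ENSG00000114315.3, chr3:194136145-194138732 on the plus strand of GRCh38) had 4.39 and 4.01 CPM with Cx43sh1, 4.85 and 4.21 CPM with Cx43sh2, 3.78 CPM in both control coculture libraries, against 2.72 and 2.43 CPM in the control monoculture. Every coculture library was above both libraries of the control monoculture. HES1 rose 1.47-fold in the control coculture (log2 fold change 0.56, SE 0.133, edgeR adjusted p = 0.0296). The call ended without replicate 1 (adjusted p = 0.0811) or replicate 2 (0.173) of the control monoculture, without replicate 1 (0.134) or replicate 2 (0.110) of the control coculture, and in DESeq2 (0.0604).

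HEY1 (ENSG00000164683.12) had 2.20 and 2.41 CPM with Cx43sh1, 3.18 and 3.0 CPM with Cx43sh2, 2.93 and 3.46 CPM in the control coculture, against 1.52 and 2.02 CPM in the control monoculture. The Cx43sh2 and control cocultures overlapped, and the Cx43sh1 coculture lay between them and the control monoculture. HEY1 rose 1.79-fold in the control coculture against the control monoculture (log2 fold change 0.84, SE 0.169, edgeR adjusted p = 0.0144). That call ended without replicate 1 of the control monoculture (0.65, adjusted p = 0.0958) and without replicate 2 of the control coculture (0.70, adjusted p = 0.0854). NRARP had 2.52 and 2.08 CPM with Cx43sh1, 2.44 and 2.82 CPM with Cx43sh2, 2.29 and 2.17 CPM in the control coculture, against 2.42 and 2.20 CPM in the control monoculture. Both Cx43sh2 libraries were above those of the control coculture and the control monoculture, which overlapped. The difference between the control coculture and the control monoculture was -0.05 (95% interval -0.41 to 0.31, edgeR adjusted p = 0.877).

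The promoters of HES1, of JAG1 and of HES4, a HES factor described with the other pathway genes, are shown because these genes rose in the control coculture and the promoters differ in matches to TGGGAA, the core of the site that RBPJ recognises. RefSeq promoters on GRCh38.p14 were searched for 8 of the 10 Notch genes, and those of DLL1 and HEY1 were not searched. Each window runs from 250 bases before the start of the gene to 50 after it, and the 250 bases before the start are printed 5′ to 3′, with capitals for TGGGAA on the printed strand. They lie at chr3:194135898-194136147 (plus strand, HES1), chr20:10674000-10674249 (minus strand, JAG1) and chr1:1000098-1000347 (minus strand, HES4).
HES1: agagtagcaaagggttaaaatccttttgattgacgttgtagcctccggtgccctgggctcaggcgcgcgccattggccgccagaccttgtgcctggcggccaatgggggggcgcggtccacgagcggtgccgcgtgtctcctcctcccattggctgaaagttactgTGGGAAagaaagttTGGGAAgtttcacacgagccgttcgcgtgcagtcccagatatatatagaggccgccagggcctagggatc
JAG1: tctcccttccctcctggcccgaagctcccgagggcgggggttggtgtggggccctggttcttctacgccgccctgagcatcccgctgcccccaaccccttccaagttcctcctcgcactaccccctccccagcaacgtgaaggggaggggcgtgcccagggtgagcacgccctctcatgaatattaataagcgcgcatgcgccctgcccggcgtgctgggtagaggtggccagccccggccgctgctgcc
HES4: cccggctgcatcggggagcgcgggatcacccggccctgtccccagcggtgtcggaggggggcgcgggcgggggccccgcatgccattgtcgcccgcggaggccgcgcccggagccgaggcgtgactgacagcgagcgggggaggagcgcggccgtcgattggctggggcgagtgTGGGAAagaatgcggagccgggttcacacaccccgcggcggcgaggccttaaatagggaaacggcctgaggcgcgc
Both strands were searched for TGGGAA and for GTGGGAA, which contains it. HES1 held TGGGAA 84 and 70 bases before the start, the first as GTGGGAA, and HES4 held it 76 bases before the start, as GTGGGAA. No match was found in the 300 bases of JAG1, JAG2, DLL4, NOTCH1, NOTCH2, NOTCH3 or NRARP. HES7, another HES factor that rose in the control coculture, also held no match in its 300 bases. Of 35116 RefSeq promoters of this length 24.0% held TGGGAA at least once on either strand, 3.80% held it at least 2 times, and 6.25% held GTGGGAA. A match describes the letters only and is not a measured site, and a window without one says nothing of RBPJ there.

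The second comparison set each Cx43-depleted coculture against the control coculture, to ask which Notch transcripts differed when the carcinoma cells carried a hairpin against Cx43. DLL1 was the 1 Notch gene that passed the test, and it fell. Averaged over both hairpins, 0 of 9 tested genes rose and 1 fell, where 3.37% of all tested genes rose and 5.85% fell. The count at an unadjusted p under 0.05 was 2 in either direction, and DESeq2 called 1. The median log2 fold change of the 9 was 0.05, against -0.01 over all genes.

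DLL1 averaged 0.789 ± 0.160 CPM with Cx43sh1, 0.773 ± 0.0319 CPM with Cx43sh2 and 1.47 ± 0.156 CPM in the control coculture (SD, n = 2 each). Over both hairpins it fell to 0.532 of the control coculture (log2 fold change -0.91, SE 0.176, 95% interval -1.31 to -0.51, edgeR adjusted p = 0.0162). The call ended without replicate 1 (-1.02, adjusted p = 0.0588) or replicate 2 (-0.79, adjusted p = 0.156) of the control coculture, and without replicate 1 (-0.93, adjusted p = 0.0557) or replicate 2 (-0.89, adjusted p = 0.0722) of Cx43sh2. The difference kept its direction in each of these fits. FAM120B did not pass the test here (0.05, adjusted p = 0.775).

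The hairpins gave like values for DLL1 when each was tested alone. With Cx43sh1, 0 of 9 tested genes rose and 1 fell, DLL1 (-0.89, SE 0.206, edgeR adjusted p = 0.0365), where 3.09% of all tested genes rose and 4.73% fell. With Cx43sh2, 0 of 9 rose and 1 fell, again DLL1 (-0.93, SE 0.207, edgeR adjusted p = 0.0438), where 0.962% of all tested genes rose and 3.20% fell. DESeq2 gave adjusted p = 0.118 and 0.150 for them and called no Notch gene with either hairpin, and the unadjusted p was under 0.05 for 2 of the 9 genes with each. Without 1 library at a time the Cx43sh1 call ended in 7 of 8 fits, the exception being replicate 1 of Cx43sh1, with values of -1.11 to -0.70. The Cx43sh2 call ended in 6 of 8 fits, all but those without a Cx43sh1 library, with values of -1.03 to -0.80.

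JAG1 was not lower with either hairpin. It averaged 85.9 ± 7.51 CPM with Cx43sh1, 94.8 ± 2.86 CPM with Cx43sh2 and 78.5 ± 1.71 CPM in the control coculture (SD, n = 2 each), and all 4 depleted libraries were above both control coculture libraries. The difference over both hairpins did not pass the test (0.20, 95% interval 0.04 to 0.36, edgeR adjusted p = 0.106), nor did that of Cx43sh2 alone (0.27, 95% interval 0.09 to 0.45, edgeR adjusted p = 0.0975). It passed over both hairpins without replicate 1 of Cx43sh1 (0.24, adjusted p = 0.0242), and for Cx43sh2 without replicate 1 or 2 of Cx43sh1 (0.27, adjusted p = 0.0344 each).

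No target passed the test over both hairpins. HES1 was higher in all 4 depleted libraries than in the control coculture, without passing the test (0.21, 95% interval -0.04 to 0.46, edgeR adjusted p = 0.282). HEY1 was below the control coculture in both Cx43sh1 libraries (-0.47, 95% interval -0.85 to -0.10, edgeR adjusted p = 0.117) and overlapped it with Cx43sh2 (-0.05, 95% interval -0.41 to 0.31, edgeR adjusted p = 0.909). NRARP gave 0.14 over both hairpins (95% interval -0.17 to 0.45, edgeR adjusted p = 0.574).

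The receptors and minor ligands also gave no call over both hairpins. NOTCH1 differed by 0.07 (95% interval -0.23 to 0.36), NOTCH2 by -0.11 (-0.31 to 0.10), NOTCH3 by 0.05 (-0.47 to 0.56) and JAG2 by -0.37 (-0.94 to 0.20), all on the log2 scale. DLL4, in the fit without the filter, differed by 0.01 (SE 0.470). The intervals of NOTCH1 and NOTCH2 were narrower than those of NOTCH3 and JAG2.

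A further comparison set both depleted cocultures against the control monoculture, which differs from them in both the hairpin and the astrocytes, so the effects of hairpin and astrocytes cannot be told apart in it. Here DLL1, JAG1, HES1 and HEY1 rose and no Notch gene fell, 4 of 9 tested, where 10.8% of all tested genes rose and 6.34% fell. The median of the 9 was 0.23, against 0.00 over all genes. The 3 comparisons share libraries in pairs and are not independent.

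DLL1 rose 2.82-fold over the control monoculture in the depleted cocultures (log2 fold change 1.49, SE 0.243, edgeR adjusted p = 0.00599), a call that ended without replicate 1 (1.51, adjusted p = 0.0558) or replicate 2 (1.46, adjusted p = 0.0579) of the control monoculture. JAG1 rose 1.85-fold (0.89, SE 0.0711, edgeR adjusted p = 0.000189) and kept its call without each library. HES1 rose 1.69-fold (0.76, SE 0.114, edgeR adjusted p = 0.00411), and lost its call without replicate 2 of the control monoculture (0.67, adjusted p = 0.0511). HEY1 rose 1.5-fold (0.58, SE 0.150, edgeR adjusted p = 0.0315). Its call ended without replicate 1 (0.39, adjusted p = 0.202) or replicate 2 (0.80, adjusted p = 0.0526) of the control monoculture, replicate 2 of Cx43sh1 (0.55, adjusted p = 0.0649), or replicate 1 (0.56, adjusted p = 0.0858) or replicate 2 (0.61, adjusted p = 0.0873) of Cx43sh2.

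**Figure D3:**
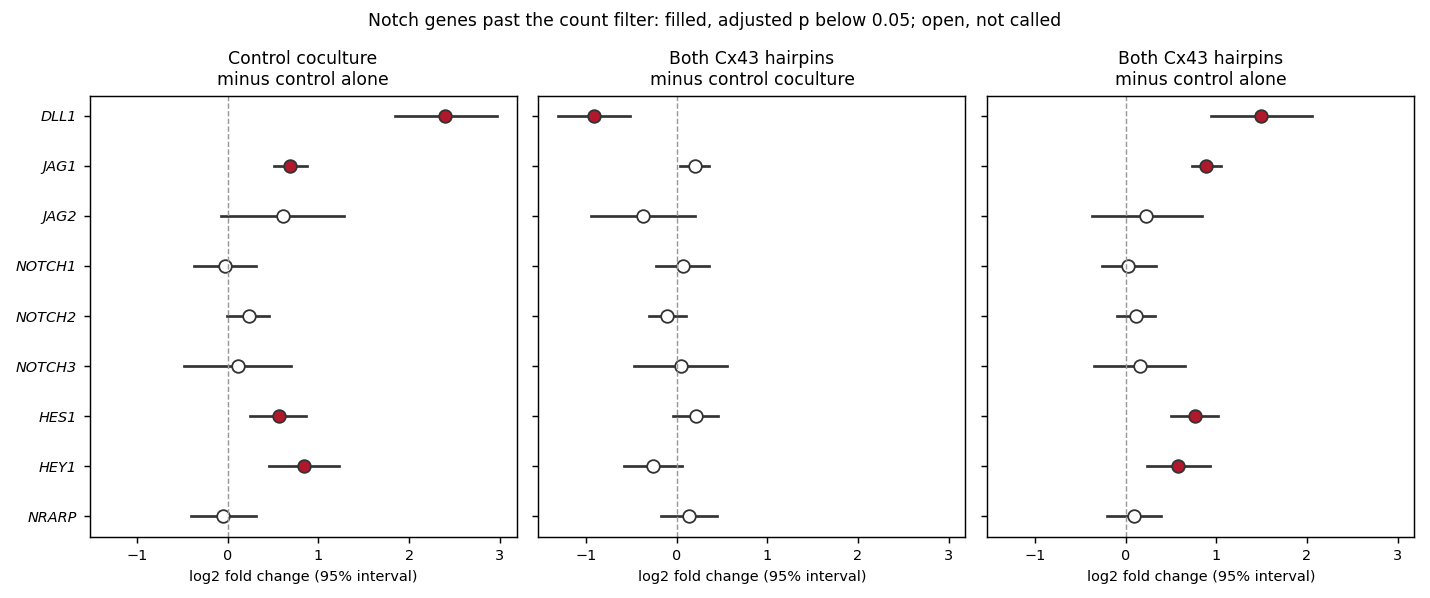
Log2 fold changes with 95% intervals of the 9 tested Notch genes in 3 comparisons, filled where the edgeR adjusted p was below 0.05 and open otherwise. DLL1 is to the right of 0 in the first panel (2.40) and left of it in the second (-0.91), whereas JAG1, HES1 and HEY1 are filled in the first and last panels only, and the receptors are open in all 3.

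Between the hairpins, Cx43sh2 against Cx43sh1, 0 of 9 Notch genes were called by edgeR or by DESeq2, and 1 had an unadjusted p under 0.05. Of all tested genes 0.0253% were higher and 0.00633% lower, which is 4 and 1 genes, or 2 and 1 with upper-quartile scaling. The median of the 9 was 0.14, against -0.01 over all genes. The gene with the unadjusted p under 0.05 was HEY1, at 3.09 ± 0.128 CPM with Cx43sh2 and 2.31 ± 0.153 CPM with Cx43sh1 (0.42, 95% interval 0.05 to 0.79, edgeR adjusted p = 0.705; SD, n = 2 each). For DLL1 the difference between hairpins was -0.03 (95% interval -0.55 to 0.48, edgeR adjusted p = 0.974).

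The genes most like DLL1, JAG1 and HEY1 in pattern, the 3 Notch genes with the widest range of group means, were found by Pearson's r of log2 CPM over the 8 libraries among 10804 genes. For DLL1 they were MXI1 (r = 0.992), CMPK2 (0.987) and VCAM1 (0.986). For JAG1 they were JHDM1D (0.991), CXXC5 (0.991) and BMF (0.990), and for HEY1 ST3GAL5 (0.975), SLC16A6 (0.965) and SERPIND1 (0.964). The libraries share groups and scaling, so these values only describe likeness. On the log2 scale MXI1 changed by 0.55 in the control coculture against the control monoculture, where DLL1 changed by 2.40. CMPK2 and VCAM1 changed by 8.21 and 7.72.

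Further Notch pathway genes were counted in 5 lists by role. Of all tested genes 8.74% rose and 2.93% fell in the control coculture, and 3.37% rose and 5.85% fell over both hairpins. Among 10 tested of 14 other HES and HEY factors and targets, 4 rose and 0 fell in the control coculture against the control monoculture, with a median of 0.03. In the depleted cocultures against the control coculture 0 rose and 3 fell, with a median of -0.05. The 3 that fell, HES4, HES7 and MYC, were also among the 4 that rose, in a comparison that uses the same control coculture libraries.

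HES4, a HES-family repressor, had 6.34 and 5.89 CPM with Cx43sh1, 8.41 and 7.51 CPM with Cx43sh2, 11.6 and 13.4 CPM in the control coculture, against 6.66 and 5.49 CPM in the control monoculture. Both control coculture libraries were above all others. HES4 rose by 1.04 in the control coculture against the control monoculture (SE 0.124, edgeR adjusted p = 0.000978) and fell by 0.84 over both hairpins (SE 0.104, edgeR adjusted p = 0.00193), calls that held without each library. Its neighbour ISG15, an interferon-stimulated gene, lies on the other strand with 965 bases between it and HES4 (chr1:1001138-1014540, plus strand, GRCh38). ISG15 averaged 54.1 ± 6.53 CPM with Cx43sh1, 72.8 ± 8.63 CPM with Cx43sh2, 676 ± 118 CPM in the control coculture and 50.6 ± 0.519 CPM in the control monoculture (SD, n = 2 each). It changed in the same directions (3.74, adjusted p = 8.09e-07, and -3.43, adjusted p = 2.54e-07), and its part in the HES4 reads was not tested.

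HES7, a HES repressor of the segmentation clock, had 4.35 and 4.30 CPM with Cx43sh1, 4.07 and 3.91 CPM with Cx43sh2, 6.30 and 7.38 CPM in the control coculture, against 4.08 and 4.41 CPM in the control monoculture. It rose by 0.69 in the control coculture (edgeR adjusted p = 0.00587), except without replicate 1 of the control monoculture (0.62, adjusted p = 0.0570). Over both hairpins it fell by 0.72 (edgeR adjusted p = 0.00314), except without replicate 2 of the control coculture (-0.59, adjusted p = 0.0508). MYC, a growth-promoting transcription factor, had 255 and 258 CPM with Cx43sh1, 252 and 251 CPM with Cx43sh2, 326 and 329 CPM in the control coculture, against 237 and 235 CPM in the control monoculture. It rose by 0.47 (edgeR adjusted p = 0.00117) and fell by 0.37 (edgeR adjusted p = 0.00310), and both calls held without each library. BHLHE41, a related basic helix-loop-helix repressor, rose by 0.64 (edgeR adjusted p = 0.00335) in the control coculture.

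Among 7 tested of 9 other ligands and receptors, 2 rose and 1 fell in the control coculture (median 0.07), where 8.74% of all tested genes rose and 2.93% fell. Of these 7, 0 changed over both hairpins by edgeR or by DESeq2 (median -0.20), and 1 had an unadjusted p under 0.05. Of all tested genes 3.37% rose and 5.85% fell over both hairpins. MFAP5, a microfibril protein that can bind Notch ligands and receptors, fell by 0.84 in the control coculture against the control monoculture (edgeR adjusted p = 0.00453). It had 2.15 and 1.98 CPM with Cx43sh1, 1.86 and 2.07 CPM with Cx43sh2, 2.26 and 2.58 CPM in the control coculture, against 4.15 and 4.51 CPM in the control monoculture. DNER, a neuronal transmembrane Notch ligand, rose by 0.46 (edgeR adjusted p = 0.00930), but not past the test without replicate 1 (0.44, adjusted p = 0.0779) or replicate 2 (0.47, adjusted p = 0.0695) of the control monoculture or replicate 2 of the control coculture (0.37, adjusted p = 0.0746).

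Among 13 tested of 14 genes of Notch proteolysis and glycosylation, 3 rose and 0 fell in the control coculture (median 0.04), and 2 rose and 0 fell over both hairpins (median -0.04). Of all tested genes 8.74% rose and 2.93% fell in the control coculture, and 3.37% rose and 5.85% fell over both hairpins. LFNG is a Fringe, an enzyme that adds N-acetylglucosamine to O-fucose on Notch. It had 24.1 CPM in both Cx43sh1 libraries, 23.8 and 21.7 CPM with Cx43sh2, 16.2 and 16.5 CPM in the control coculture, against 14.2 and 13.6 CPM in the control monoculture. The 4 depleted libraries were above all 4 others. LFNG rose by 0.52 over both hairpins (SE 0.0679, edgeR adjusted p = 0.00270) and by 0.75 against the control monoculture (edgeR adjusted p = 0.000427), and both calls held without each library. POGLUT1, which glucosylates Notch, was the other called over both hairpins (0.35, edgeR adjusted p = 0.0245). Its call ended without replicate 1 (0.27, adjusted p = 0.169) or replicate 2 (0.44, adjusted p = 0.0644) of the control coculture or replicate 1 (0.38, adjusted p = 0.0633) or replicate 2 (0.32, adjusted p = 0.108) of Cx43sh2.

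In the list of the nuclear complex, 3 of 15 tested genes rose and 0 fell in the control coculture (median 0.15), and 0 rose and 2 fell over both hairpins (median 0.02). RBPJ, the DNA-binding partner of Notch, was not among them (0.17, edgeR adjusted p = 0.211, and 0.02, edgeR adjusted p = 0.873). MAML3, a Mastermind coactivator, rose by 0.65 in the control coculture (edgeR adjusted p = 0.00799), but not past the test without replicate 2 of the control monoculture (0.57, adjusted p = 0.0620) or replicate 1 of the control coculture (0.50, adjusted p = 0.0570). Of 12 tested genes of endocytosis and turnover, 1 rose and 0 fell in the control coculture (median 0.10) and 0 rose and 1 fell over both hairpins (median -0.05). Between the hairpins no gene of the 5 lists was called by edgeR or by DESeq2, with an unadjusted p under 0.05 for 3 of the other ligands and receptors and for 1 gene of each other list. The lists were read against the 8.74% and 2.93% of all genes that rose and fell in the control coculture and the 3.37% and 5.85% over both hairpins.

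**Figure D4:**
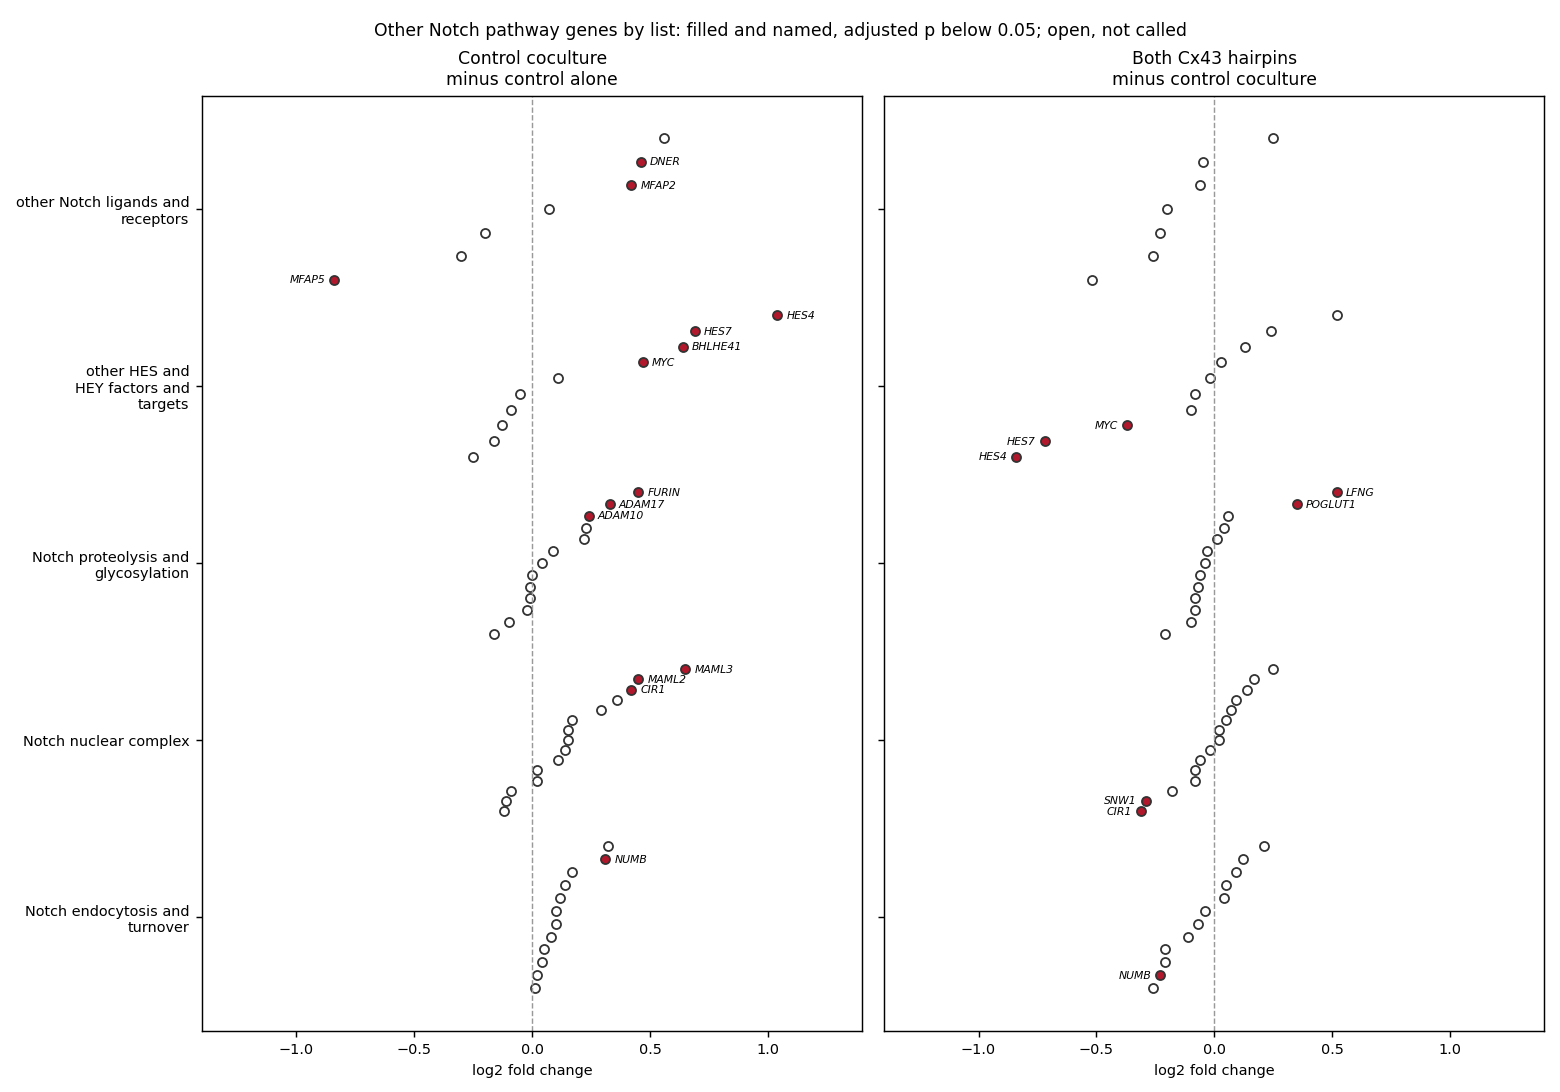
Log2 fold changes of the tested genes of 5 further Notch pathway lists, ordered within each list, in the control coculture against the control monoculture (left) and in both Cx43-depleted cocultures against the control coculture (right). Filled and named points had an edgeR adjusted p below 0.05: HES4 is farthest to the right on the left panel (1.04) and farthest to the left on the right panel (-0.84), and LFNG is the highest called point of the right panel (0.52).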

How the data were processed

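The authors deposited 1 table of read counts, whole numbers for 57445 genes and 5 counter entries in 8 TRAP libraries, under a name that says normalized. The submitters' processing notes name TopHat2, HTSeq, DESeq2 and hg19, with no versions, and the libraries were made with a TruSeq v2 kit and anti-GFP beads, per the labels' protocols. Annotation, strand setting and counting mode are not given in the sources used here. Counter entries (not unique 14.2% to 26.1%, ambiguous 2.63% to 3.20%, outside features 3.77% to 4.53%, unaligned 4.72% to 5.45% of totals) were left out of tests. No column was left unused (0).

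Genes averaging 10 or more counts across libraries were scaled by TMM factors (0.975 to 1.03) and fitted together, by group, by edgeR 4.0.16 (quasi-likelihood F test, R 4.3.3). Benjamini-Hochberg adjustment covered all 15806 tested genes, and genes under an adjusted p of 0.05 were called as risen or fallen. The common biological coefficient of variation was 7.66%. CPM used the scaled library sizes, and levels per kilobase used merged exons of GENCODE 29. P-values rest on the spread between the 2 libraries of a group, estimated jointly over all 4 groups and with information shared across genes. Libraries outside a comparison therefore also entered its p-values. Replicates differed by more than counting error, the chi-square over its degrees of freedom being 32.6 (Cx43sh1), 4.22 (Cx43sh2), 22.0 (control coculture) and 13.6 (control alone). The fit was tested on simulated data.

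The Notch members and the gene lists were chosen with earlier results of these data known. Every member was named; of each other list up to 4 called genes per comparison with the smallest p could be named. FAM120B and ISG15 were chosen as neighbours of DLL1 and HES4 after the values of DLL1 and HES4 were seen. Alternatives were RLE and upper-quartile scaling, DESeq2 1.42.0, no filter, edgeR's own filter, a replicate block, a fit of only the groups compared, and leaving out each library. The runs for the other pathway genes and the second length measure were chosen after seeing the data.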

Additional observations from a re-analysis of the deposited data

How the results depend on the processing

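Of the Notch gene values under 15 alternatives in each of 6 comparisons, 743 kept direction and side of the threshold, 38 lost a call, 4 gained one and 25 changed sign. All 25 were values that had no call, in fits that left out 1 library. In the control coculture against the control monoculture these were NOTCH1 (-0.21 to 0.13), NOTCH3 (-0.25 to 0.52) and NRARP (-0.12 to 0.00). With Cx43sh1 against the control coculture they were NOTCH1 (-0.14 to 0.28), NOTCH2 (-0.14 to 0.07), NOTCH3 (-0.35 to 0.20) and NRARP (-0.10 to 0.18), and with Cx43sh2 JAG2 (-0.39 to 0.16) and HEY1 (-0.16 to 0.09). Over both hairpins against the control coculture they were NOTCH1 (-0.04 to 0.16), NOTCH2 (-0.21 to 0.01) and NOTCH3 (-0.10 to 0.22), and against the control monoculture NOTCH1 (-0.14 to 0.20) and NOTCH3 (-0.20 to 0.57). Between the hairpins they were DLL1 (-0.23 to 0.19), NOTCH1 (-0.22 to 0.19) and NOTCH3 (-0.06 to 0.49). For the other pathway genes 541 values kept their call and direction and 164 lost the call.

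Notch genes called numbered 4 in the control coculture against the control monoculture (2 to 4 without 1 library), 1 with Cx43sh1 (0 to 1), 1 with Cx43sh2 (0 to 2), 1 over both hairpins against the control coculture (0 to 2), 4 over both against the control monoculture (1 to 4) and 0 between hairpins (0 in each such fit). With Cx43sh1 the number was 0 in DESeq2, 0 with the replicate block and 0 with only the groups compared. With Cx43sh2 it was 0, 0 and 2 in these fits, JAG1 passing in the last (0.27, adjusted p = 0.0435). HES1 lost its call in the control coculture with only the groups compared (0.54, adjusted p = 0.0576).

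Without 1 library, the genes called over all tested genes ran from 738 to 2582 in the control coculture against the control monoculture (1844 with all), 281 to 2405 with Cx43sh1 (1236), 150 to 1101 with Cx43sh2 (658), 343 to 2314 over both hairpins against the control coculture (1457), 531 to 4717 over both against the control monoculture (2709) and 0 to 3 between hairpins (5, with 1084 at an unadjusted p under 0.05). Without the filter they were 2805, 2269, 1191 and 4117 in the control coculture, with Cx43sh1, with Cx43sh2 and over both against the control monoculture, and 304 between hairpins. With only the groups compared they were 236 with Cx43sh1 and 2 between hairpins. Between hairpins upper-quartile scaling gave 3 and DESeq2 18. The cause of these shifts was not tested.

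The labels give no batch, and nothing beyond the number ties same-numbered libraries there. Correlations of their deviations between groups ran from -0.38 to 0.20, and whether these libraries shared a batch was not tested. With a replicate block the genes called were 1160, 446, 319, 700, 1502 and 0 in the 6 comparisons in the order above, with 728 at an unadjusted p under 0.05 in the last. Under the block DLL1 had adjusted p = 0.0782 with Cx43sh1 and 0.0964 with Cx43sh2, and the other Notch calls held.

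Depth limits DLL4 and JAG2 most, with 4 to 13 reads per library for DLL4.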
